A study of Mus musculus with 12 samples.

Results

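Neurexins, neuroligins and LRRTM (leucine-rich repeat transmembrane) proteins are adhesion molecules that join the 2 sides of a synapse. Neurexins sit mainly in the presynaptic membrane, and neuroligins and LRRTM proteins reach across the cleft from the postsynaptic side to bind them. In the hippocampus these contacts help to recruit glutamate receptors at excitatory synapses and GABA and glycine receptors at inhibitory ones. The set described here comprised 9 genes, *Nrxn2*, *Nrxn3*, *Nlgn1*, *Nlgn2*, *Nlgn3*, *Lrrtm1*, *Lrrtm2*, *Lrrtm3* and *Lrrtm4*, and its members were the probes annotated with one of these symbols. There were 16 such probes for 8 of the genes among 45281 probes in all. *Nlgn3* had no annotated probe, by symbol or by gene identifier, and was not analysed here.

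Signals came from Illumina MouseWG-6 v2.0 expression arrays, 1 array for each of 12 male C57BL/6J mice aged 12 weeks, and complementary RNA made from total RNA of the hippocampus was hybridised. The 6 ethanol-exposed mice were born to dams that drank ethanol early in gestation, starting at 0.5 and ending at 8.5 days after coitus, and the 6 control mice to dams given water. The litter of each mouse is not given in the sources used here, so the tests took each mouse as independent. If some mice shared a litter, the p-values may be too small. Each of 2 chips carried 3 ethanol-exposed mice (replicates 1 to 3 or 4 to 6) and 3 controls with the same numbers.

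A probe counted as detected on an array at a detection p-value under 0.05, which sets its signal against those of the negative control beads. Between 18644 and 20268 probes were detected on an array, and the correlation of normalised log2 signals between any pair of arrays lay between 0.984 and 0.993. Of the member probes, 11 were detected on all 12 arrays and were compared between the groups, and they stand for 7 genes. The other 5 were detected on fewer than 6 arrays, 4 of them on none. Values are log2 signals after background correction and quantile normalisation, and a difference is ethanol minus control on that scale. In whole tissue, fewer cells of a type and less RNA per cell cannot be told apart.

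Neuron, interneuron, astrocyte, oligodendrocyte and microglia markers were present in the hippocampal RNA, with 6 of 7, 6 of 6, 6 of 6, 5 of 5 and 6 of 6 genes with a probe detected on at least 6 arrays. Both probes of the synaptic gene *Snap25* were detected on 0 arrays, whereas *Syt1*, *Rbfox3*, *Neurod6*, *Prox1*, *Wfs1* and *Grik4* were detected. Of the choroid plexus markers 3 of 6 were detected. The log2 of their summed linear signals ran from 8.72 to 14.69 in ethanol-exposed mice and from 9.40 to 15.35 in controls.

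The 100 bases upstream of listed RefSeq start sites (GRCm38.p6) are given for 3 of the 6 members with an entry in the table. Among these 6, *Nrxn3* had the most starts and *Nlgn2* the most CpG sites upstream, and *Lrrtm1* had the smallest p-value between groups of the 11 compared member probes. The sequences run 5′ to 3′ on the strand of the gene, with CpG dinucleotides, the sites of DNA methylation in mammals, in capitals. The gene itself begins at chr12:88722701 for *Nrxn3* and at chr6:77229210 for *Lrrtm1*, upstream of all their starts shown. First start therefore means the first one listed, not the beginning of the gene.
*Nrxn3*, first start, chr12:88794404-88794503 (+ strand): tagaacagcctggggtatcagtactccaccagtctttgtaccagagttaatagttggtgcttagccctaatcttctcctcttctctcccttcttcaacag
*Nrxn3*, middle start, chr12:88953290-88953389 (+ strand): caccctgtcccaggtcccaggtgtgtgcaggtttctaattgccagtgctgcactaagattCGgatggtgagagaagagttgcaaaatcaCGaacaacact
*Nrxn3*, last start, chr12:89812383-89812482 (+ strand): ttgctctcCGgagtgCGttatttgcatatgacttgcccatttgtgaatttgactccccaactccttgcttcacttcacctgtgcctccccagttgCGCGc
*Nlgn2*, chr11:69837785-69837884 (- strand): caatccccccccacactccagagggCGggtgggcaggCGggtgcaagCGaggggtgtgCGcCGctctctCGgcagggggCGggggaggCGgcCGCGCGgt
*Lrrtm1*, chr6:77242377-77242476 (+ strand): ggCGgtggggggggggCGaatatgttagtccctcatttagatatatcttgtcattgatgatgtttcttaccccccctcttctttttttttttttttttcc
The 3 listed starts of *Nrxn3* had 2, 5 and 12 CpG sites in the 250 bases upstream, in the order shown. *Nlgn2* had 18 and *Lrrtm1* had 5, and across 32851 windows of that length in the table the median was 6. *Nlgn1* (5 and 9 at its 2 starts), *Lrrtm3* (6) and *Lrrtm4* (3 and 8 at its 2 starts) lay between these. The motif TATAAA, searched on both strands, was found in 1 of 10 member windows (*Lrrtm4*) and in 12.4% of all windows. DNA methylation was not measured on these arrays, and the probe annotation does not say which *Nrxn3* start gave rise to a signal.

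No member probe differed between the groups after correction. In limma 0 of 11 passed an adjusted p of 0.05, as did 0% of the 19288 probes tested. At an unadjusted p under 0.05 there was 1 member probe, that of *Lrrtm1*, against 6.44% of all probes tested (648 higher and 594 lower in ethanol-exposed mice, and 147 and 637 with median scaling), so the count of members is near the background. The differences were positive at 7 member probes and negative at 4, with a median of 0.06, and 9952 of the 19288 probes tested were positive, with a median of 0.00. The median size of a difference, without its sign, was 0.13 over the member probes and 0.09 over all probes. No member probe passed the study's thresholds of a 1.5-fold difference and an unadjusted p of 0.05, which 25 of all probes did.

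**Figure D1:**
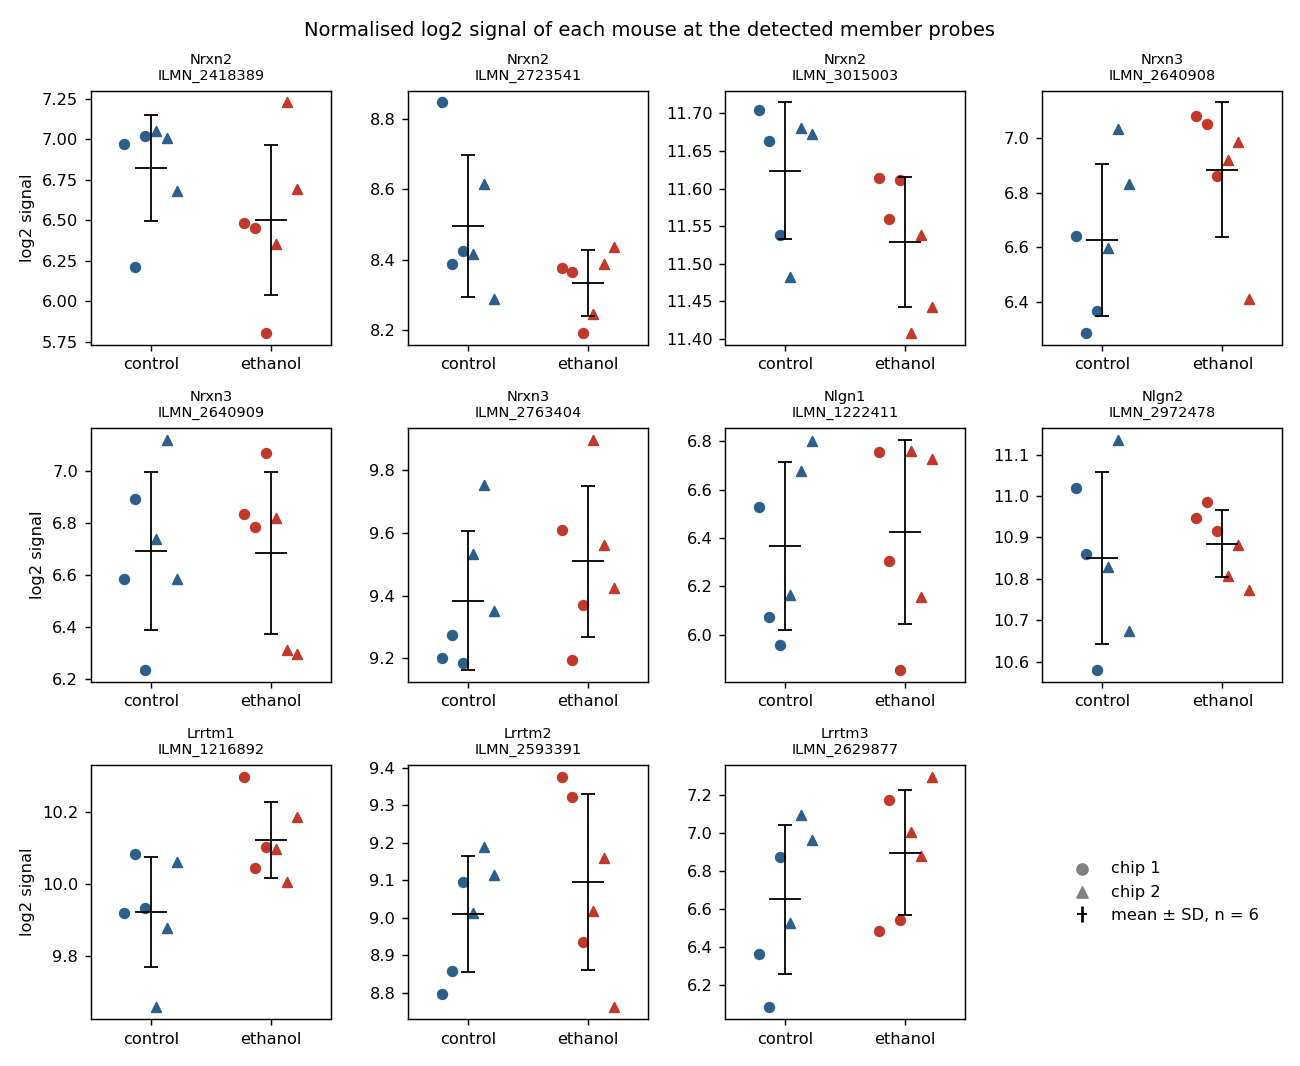
Normalised log2 signal (vertical axes, a separate scale in each panel) of every mouse at the 11 detected member probes, with controls in blue and ethanol-exposed mice in red. Circles are chip 1, triangles chip 2, and bars show the mean ± SD of 6 mice. The groups overlap at every probe, and at *Lrrtm1* 4 ethanol-exposed mice lie above the highest control.

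*Nrxn2*, one of the presynaptic neurexins, had a lower mean signal in ethanol-exposed mice at each of its 3 detected probes. At the brightest, ILMN_3015003, ethanol-exposed mice had 11.41, 11.55 and 11.61 as the lowest, median and highest value, and controls had 11.48, 11.67 and 11.70. All 6 ethanol-exposed mice lay below the control median, and 4 controls lay above every ethanol-exposed mouse, while control replicates 3 and 4 were low. The difference was −0.09 (standard error, SE, 0.070, 95% interval from −0.25 to 0.06, limma p = 0.198 before and adjusted p = 0.813 after correction), and an exact permutation test, two-sided as throughout, gave p = 0.102.

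At ILMN_2723541 the *Nrxn2* signals were 8.19, 8.37 and 8.44 in ethanol-exposed mice and 8.29, 8.42 and 8.85 in controls. Control replicates 1 and 5 lay above every ethanol-exposed mouse, and the other controls overlapped with them. The difference was −0.16 (SE 0.094, 95% interval from −0.36 to 0.04, limma adjusted p = 0.773, exact permutation p = 0.0974). At the dimmer ILMN_2418389 the values were 5.80, 6.47 and 7.23 in ethanol-exposed mice and 6.21, 6.99 and 7.05 in controls. Ethanol-exposed replicate 5 was the highest of all mice and replicate 3 the lowest, so the exposed group spanned the controls. The difference was −0.32 with a wide error (SE 0.20, 95% interval from −0.75 to 0.11, limma adjusted p = 0.780, exact permutation p = 0.188). It was −0.18 without ethanol-exposed replicate 3, −0.46 without replicate 5 and −0.44 without control replicate 2. Leaving out either of the last 2 mice brought the unadjusted limma p-value under 0.05.

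Another *Nrxn2* probe, ILMN_1253547, was detected in 0 of 6 ethanol-exposed mice and 5 of 6 controls, and it fell short of the 6 arrays needed for the comparison. Its values were 4.83, 5.17 and 5.33 in ethanol-exposed mice and 5.01, 5.51 and 5.73 in controls. Control replicate 6 lay among the exposed mice, and the other 5 controls lay above all of them. The lowest detected signal of an array was 5.16 to 5.36, so these signals were close to background. Each ethanol-exposed array was given that limit or its measured signal, whichever was higher, and the control mean was then 1.15-fold higher. Control replicate 6, not detected, entered at its measured signal, so 1.15 is not a strict lower bound. This value compares group means only and carries no sampling error. With all 45281 probes tested the measured difference of ILMN_1253547 was −0.33 (limma p = 0.0129 before and adjusted p = 0.889 after correction, exact permutation p = 0.0368). The remaining *Nrxn2* probe, ILMN_3086209, was detected on 0 arrays. Its signals were not told apart from background, and no comparison between groups is given, as for the other probes detected on 0 arrays.

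*Nrxn3*, a second neurexin gene, gave no common direction over its 3 detected probes. At ILMN_2763404, the brightest, ethanol-exposed mice had 9.19, 9.49 and 9.90 and controls had 9.19, 9.31 and 9.75. The ranges nearly coincided, with a difference of 0.13 (SE 0.12, 95% interval from −0.14 to 0.39, limma adjusted p = 0.860, exact permutation p = 0.364). At ILMN_2640908 the values were 6.41, 6.95 and 7.08 against 6.28, 6.62 and 7.03. Of the exposed mice 5 were above the median control, and replicate 6 was low. The difference was 0.26 (SE 0.14, 95% interval from −0.04 to 0.56, limma adjusted p = 0.766, exact permutation p = 0.121). At ILMN_2640909 the values were 6.30, 6.80 and 7.07 against 6.23, 6.66 and 7.12, and the difference was −0.01 (SE 0.16, 95% interval from −0.35 to 0.33). The remaining *Nrxn3* probe, ILMN_1216872, was detected on 0 arrays.

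*Nlgn2*, the neuroligin of inhibitory synapses, had a mean difference smaller than its error. Ethanol-exposed mice had 10.77, 10.90 and 10.99 and controls had 10.58, 10.84 and 11.14 at ILMN_2972478. The exposed mice lay inside the control range, whose lowest and highest mice were replicates 3 and 5. The difference was 0.04 (SE 0.094, limma adjusted p = 0.954, exact permutation p = 0.706), and its 95% interval of −0.17 to 0.24 corresponds to folds of 0.891 to 1.18. *Nlgn1*, the neuroligin of excitatory synapses, was dim and varied more between mice, with 5.85, 6.52 and 6.76 in ethanol-exposed mice and 5.96, 6.35 and 6.80 in controls at ILMN_1222411. Replicate 3 was the lowest mouse of each group. The difference was 0.06, with a 95% interval of −0.34 to 0.45 (SE 0.18, limma adjusted p = 0.962, exact permutation p = 0.768).

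*Lrrtm1*, a postsynaptic LRRTM protein that binds neurexins at excitatory synapses, had the smallest p-value of the 11 compared member probes. Its signals were 10.01, 10.10 and 10.30 in ethanol-exposed mice and 9.66, 9.93 and 10.08 in controls at ILMN_1216892. Every one of the 6 exposed mice was above the median control and 4 were above the highest control, and the groups overlapped through control replicates 2 and 6. The difference was 0.20, or 1.15-fold (SE 0.084, 95% interval from 0.02 to 0.38, limma p = 0.0320 before and adjusted p = 0.750 after correction, exact permutation p = 0.0195), and 824 probes of the array had a p as small or smaller. It was 0.17 on chip 1 and 0.23 on chip 2. With median scaling in place of quantile normalisation the difference was 0.17 with an unadjusted p of 0.125. Without ethanol-exposed replicates 1 or 6 or control replicates 4 or 5, each left out alone, the unadjusted p lay at 0.0774, 0.0569, 0.0815 and 0.0560.

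Markers of cell types were set beside *Lrrtm1*, and those named here were picked after their values were seen. The 6 astrocyte markers had negative differences, as small as −0.008 at *Slc1a3* and −0.004 at *Gja1*. *Gfap* and *Aldoc* had unadjusted limma p-values under 0.05, and with median scaling these were 0.0220 and 0.119. The log2 of the summed linear signals of the 6 markers was 15.46 to 15.62 in ethanol-exposed mice and 15.54 to 15.68 in controls. In such a sum the brightest genes weigh most. Of 5 oligodendrocyte markers 4 were negative, with a median of −0.12, and 0 had an unadjusted limma p under 0.05. Interneuron markers were positive at 5 of 6 (median 0.12), and microglia markers negative at 4 of 6 (median −0.06). The 3 detected choroid plexus markers were all negative (median −1.12). In these lists too, 0 markers had an unadjusted limma p under 0.05. Of 6 neuron markers 1 had such a p-value, *Syt1* (0.15), and the sum was 15.35 to 15.61 against 15.33 to 15.48. Of these markers 4 were positive and 2 negative, *Prox1* and *Grik4* (both −0.10). The sum rested mainly on *Syt1*, the brightest of them (mean 14.94 in ethanol-exposed mice and 14.79 in controls). With median scaling the difference of *Syt1* was 0.09, and it no longer passed the unadjusted threshold of 0.05. Of 4 detected markers of thalamus and habenula 1 had an unadjusted limma p under 0.05, *Slc17a6* (0.67), while *Tcf7l2*, *Rora* and *Prkcd* had 0.03, −0.01 and 0.08. The sum was 11.35 to 11.95 in ethanol-exposed mice against 10.75 to 11.41 in controls. It rested mainly on *Slc17a6* (mean 11.19 and 10.52), since the other control means were 7.40 to 8.87. *Lef1* of that list was detected on 0 arrays. The *Slc17a6* value here is that of ILMN_2922321, which the study lists under the gene *Tshz2*. The study lists ILMN_2773047 for *Slc17a6*, a probe not described here. It chose *Slc17a6* from these same arrays, where the gene did not pass correction. By qPCR in further mice it found the mRNA higher in ethanol-exposed male hippocampi, whereas the protein was lower. The part of these cell type markers in the *Lrrtm1* difference was not tested.

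*Lrrtm2*, a close relative that also binds neurexins, had values of 8.76, 9.09 and 9.38 in ethanol-exposed mice and 8.80, 9.05 and 9.19 in controls at ILMN_2593391. Ethanol-exposed replicates 1 and 2 were the highest mice and replicate 6 the lowest. The difference was 0.08 (SE 0.11, 95% interval from −0.15 to 0.32, limma adjusted p = 0.901, exact permutation p = 0.465). *Lrrtm3* was dimmer, with 6.48, 6.94 and 7.30 against 6.08, 6.70 and 7.10 at ILMN_2629877. Both ethanol-exposed replicates 2 and 6 lay above every control, and the remaining mice overlapped. The difference was 0.24 (SE 0.18, 95% interval from −0.15 to 0.64, limma adjusted p = 0.815, exact permutation p = 0.258). *Lrrtm4*, which binds heparan sulphate proteoglycans, was not well above background on any array at its only probe, ILMN_2611687, and neither was the second *Lrrtm2* probe, ILMN_1216323.

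**Figure D2:**
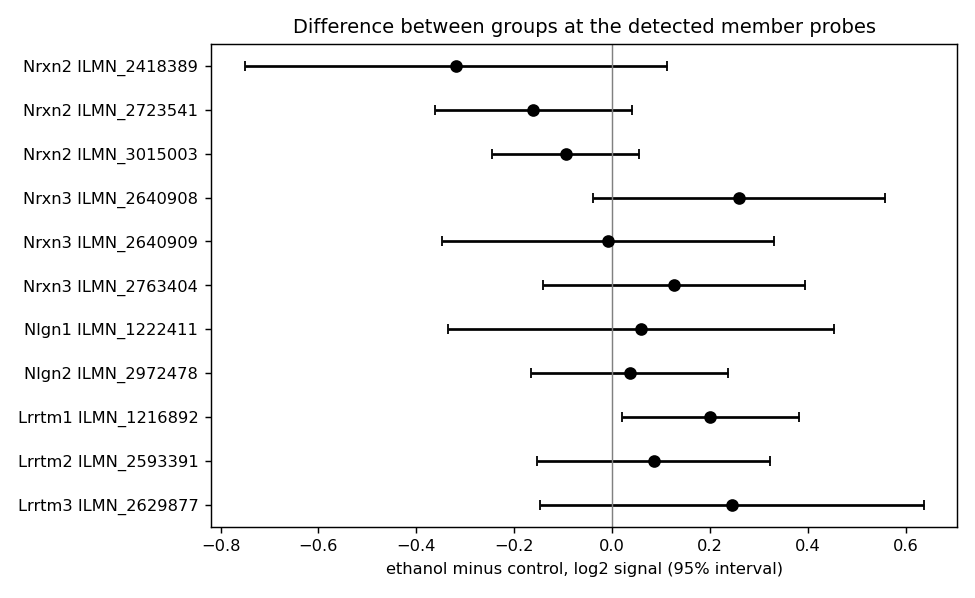
Difference in mean log2 signal, ethanol minus control (horizontal axis), at each detected member probe, with the 95% interval from limma. The interval of *Lrrtm1*, 0.02 to 0.38, lies above 0, and the other 10 intervals span 0.

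The chips were examined next, since each held 3 mice of either group. Between the chips, 0 of 11 member probes differed at an adjusted p of 0.05 in limma, where 0.446% of all probes did, and the difference of chip 2 from chip 1 had an unadjusted p of 0.0165 at ILMN_2763404 of *Nrxn3* (0.28) and 0.0351 at *Lrrtm3* (0.37). Within each chip *Nrxn2* had negative differences at all 3 detected probes, from −0.49 to −0.04 on chip 1 and from −0.15 to −0.08 on chip 2. *Nrxn3* did not behave alike on the chips. At ILMN_2640908 its difference was 0.57 on chip 1 and −0.05 on chip 2, and at ILMN_2640909 it was 0.32 and −0.34. The test of that change between chips gave unadjusted p = 0.0219 and 0.0338 and adjusted p = 0.764 and 0.789 in limma. *Lrrtm2* (0.30 and −0.13) and *Nlgn2* (0.13 and −0.06) also had opposite signs on the chips, with adjusted p = 0.809 and 0.915 for the change, while *Lrrtm3* had 0.29 and 0.20.

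**Figure D3:**
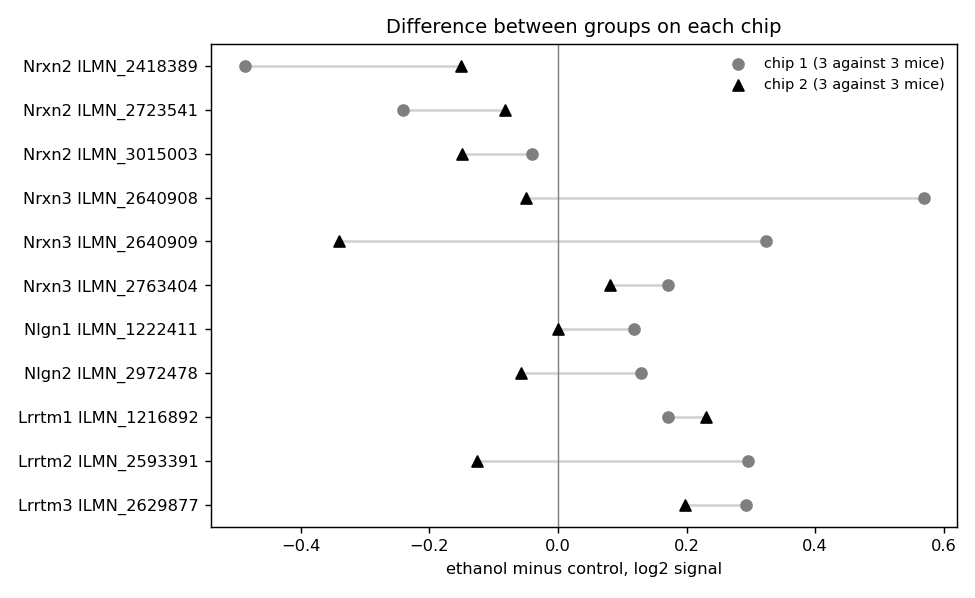
Ethanol minus control in mean log2 signal (horizontal axis) at each detected member probe, on chip 1 (circles) and chip 2 (triangles), 3 against 3 mice each. *Nrxn2* lies left of 0 on both chips and *Lrrtm1* and *Lrrtm3* right of it, and ILMN_2640908 of *Nrxn3* runs from 0.57 to −0.05.

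Probes of one gene were compared across the 12 mice to see how far they recorded the same variation. Over 6 pairs of probes, Pearson's r ran from −0.04 to 0.58. The closest pair was ILMN_2418389 and ILMN_2723541 of *Nrxn2* (r = 0.58, permutation p = 0.0467 and adjusted p = 0.274, Spearman's rho = 0.62, permutation p = 0.0370 and adjusted p = 0.222), and r was 0.58 without the 2 mice farthest from the median and 0.75 and 0.59 within chips 1 and 2. The brightest *Nrxn2* probe did not follow ILMN_2418389 (r = −0.04, rho = −0.10, permutation p = 0.891 and 0.761). Its r with ILMN_2723541 was 0.43 (rho = 0.25, permutation p = 0.167 and 0.435) and turned to −0.18 without 2 mice. The 3 *Nrxn3* pairs had r of 0.41, 0.49 and 0.34 (permutation p = 0.183, 0.104 and 0.281) and rho of 0.40, 0.48 and 0.40 (permutation p = 0.196, 0.120 and 0.196), with r of 0.50, 0.29 and 0.19 without 2 mice, and none of the 6 passed an adjusted p of 0.05.

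Partners of the members were then read from 4 lists, with the brightest tested probe of each gene. Of 71 listed genes 57 were tested, and 0 passed an adjusted p of 0.05 in limma. At an unadjusted p under 0.05 there was 1 higher and 1 lower gene, where 3.79% of all 10835 genes were higher and 2.71% lower. The median difference over these 57 genes was 0.04, with 37 positive and 20 negative. Over all genes it was 0.01, with 5832 of 10835 positive. With median scaling the median over all probes tested was −0.04, and some small positive differences such as *Cask* (0.01) turned negative (−0.03).

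Among 16 ligands and partners in the cleft, 0 passed an unadjusted p of 0.05, with 10 positive and 6 negative. The smallest p-values belonged to *Nxph1*, a neurexophilin that binds neurexins (0.18, unadjusted p = 0.113), *Cbln2*, a secreted cerebellin that bridges neurexins to delta receptors (0.29, unadjusted p = 0.121, with −0.04 on chip 1 and 0.63 on chip 2), and *Mdga1*, which blocks the binding of neuroligins to neurexins (−0.24, unadjusted p = 0.130). Among 10 scaffold proteins inside the synapse, 0 passed and the median was 0.01. *Dlg4*, the scaffold PSD-95 that binds neuroligins, had −0.18 (unadjusted p = 0.151), and the adaptors *Lin7b* and *Lin7c* had −0.12 and 0.15 (unadjusted p = 0.163 and 0.198).

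Of 24 other synapse-organising adhesion genes, 18 were positive and 6 negative, where 5832 of all 10835 genes were positive. Past an unadjusted p of 0.05 in limma there was 1. This was *Lrrc4*, a leucine-rich repeat ligand of netrin-G proteins, at ILMN_2741194. Its values were 4.96, 5.26 and 5.58 in ethanol-exposed mice and 5.18, 5.76 and 6.14 in controls, and it was detected in 3 exposed mice and 6 controls. The difference was −0.45 (SE 0.16, limma p = 0.0109 before and adjusted p = 0.720 after correction, exact permutation p = 0.0281), with −0.47 on chip 1 and −0.43 on chip 2. The exposed mean of 5.25 lay within the range of the lowest detected signals, and without background correction the difference was −0.18. The netrin-G gene *Ntng1* had 0.23 (unadjusted p = 0.0638, with 0.48 on chip 1 and −0.01 on chip 2) and *Lrfn1*, a synaptic adhesion-like molecule, had −0.36 (unadjusted p = 0.0792).

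Among 7 genes of neurexin splicing and of shedding from the membrane, 1 passed. *Ptbp2*, a splicing regulator of neurons, had 5.98, 6.53 and 6.66 in ethanol-exposed mice and 5.58, 6.06 and 6.29 in controls. Its difference was 0.41 (SE 0.16, limma p = 0.0213 before and adjusted p = 0.720 after correction, exact permutation p = 0.0519), with 0.60 on chip 1 and 0.21 on chip 2. The unadjusted limma p was 0.0552 with median scaling, 0.0507 without ethanol-exposed replicate 4 and 0.0542 without control replicate 1, and the difference was 0.20 without background correction. *Khdrbs3*, which regulates neurexin splicing, had 0.23 (unadjusted p = 0.103), and *Adam17*, a protease that sheds membrane proteins, had −0.10 (unadjusted p = 0.311).

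**Figure D4:**
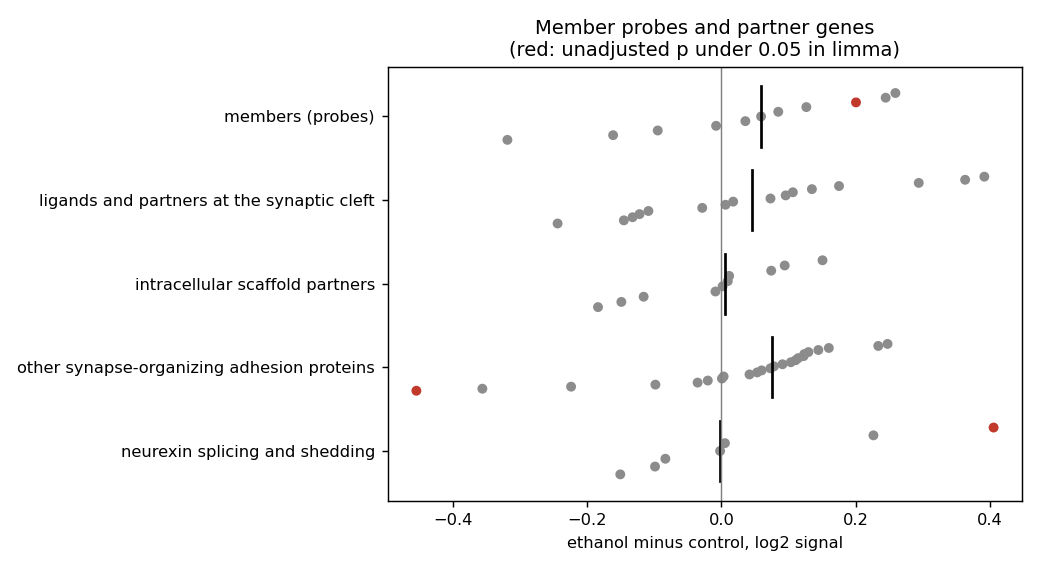
Ethanol minus control in mean log2 signal (horizontal axis) for the 11 detected member probes and for the tested genes of the 4 partner lists, 1 point per probe or gene, with the median of each list as a black bar. Red points passed an unadjusted p of 0.05 in limma, *Lrrtm1* (0.20), *Lrrc4* (−0.45) and *Ptbp2* (0.41), and none passed after adjustment.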

How the data were processed

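The deposited table before normalisation holds a linear intensity per probe and array and a detection p-value, from the authors' export (GenomeStudio 1.9.0, by the submitters' processing notes). The authors' second table holds the intensity after quantile normalisation and was used as an alternative. It lay within 0.956% of quantile normalisation of the first. Columns were matched to mice through the sample descriptions in the labels. Intensities were background corrected in limma 3.58.1 (R 4.3.3) by normexp from the detection p-values (offset 16), quantile normalised and put on the log2 scale. Probes detected on at least 6 of 12 arrays (19288) were compared in limma on group alone, with Benjamini-Hochberg adjustment. The procedure was tested on simulated data. Exact permutation tests ran over all 924 assignments, with 0.00216 as the smallest possible p, and correlations used 100000 permutations. Symbols came from the platform annotation, in which 34885 probes carry 1 symbol, and 34807 were found by gene identifier in RefSeq.

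All members at every probe were named, with the 3 genes of smallest p in each partner list. Members and lists were chosen with earlier results of these data known. Alternatives covered background, scaling, filter, chip, replicate number and each mouse left out. The number of arrays limits the precision.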

Additional observations from a re-analysis of the deposited data

Results flagged for a closer look

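Among 24 groups of 6 mice screened, 2 held a mouse that stood apart from the others by more than Dixon's 95% critical value, and chance flags about 1 in 20 groups. At ILMN_2640908 of *Nrxn3*, ethanol-exposed replicate 6 had a log2 signal of 6.41, with the other 5 between 6.86 and 7.08 (gap over range 0.672). Without this mouse the difference between groups was 0.35 (unadjusted p = 0.0133 in limma), and without control replicate 5 it was 0.34 (unadjusted p = 0.0226 in limma). At ILMN_1253547 of *Nrxn2*, control replicate 6 had 5.01, with the other 5 controls between 5.47 and 5.73 (gap over range 0.643), and it was the only control in which this probe was not detected.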

How the results depend on the processing

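Under the alternatives run, 0 member probes, partner genes or other probes reached an adjusted limma p of 0.05. Over 10 alternatives, 105 of 110 differences at member probes kept their sign, and the other 5 arose on 1 chip alone. With another filter, or with chip or replicate blocks, the sign could not turn. Those settings used the same values in balanced groups, so the difference was fixed. Sizes moved more: without background correction, differences at dim probes shrank by over 1.5 times, to −0.17 at ILMN_2418389 of *Nrxn2*, 0.15 at ILMN_2640908 of *Nrxn3*, 0.14 at *Lrrtm3*, −0.18 at *Lrrc4* and 0.20 at *Ptbp2*, and the authors' normalised table gave the same values to 2 decimals. The 5 reversed signs were, on chip 2 alone, those of ILMN_2640908 of *Nrxn3* (−0.0498), *Nlgn1* (−0.000079), *Nlgn2* (−0.0582) and *Lrrtm2* (−0.13), and on chip 1 alone that of ILMN_2640909 of *Nrxn3* (0.32). Of the partners, *Cbln2* had −0.0447 on chip 1 alone and *Ntng1* −0.00948 on chip 2 alone. Leaving out 1 mouse at a time, the sign turned at ILMN_2640909 (−0.10 to 0.0777), *Nlgn1* (−0.0228 to 0.17) and *Nlgn2* (−0.0183 to 0.0930), and the difference of *Lrrtm1* ran from 0.15 to 0.23.

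At an unadjusted p under 0.05, member probes numbered 0 with median scaling, 0 on chip 2 alone and 0 to 2 without single mice (0 without ethanol-exposed replicate 1 or control replicate 4, 2 without ethanol-exposed replicate 5 or control replicate 2, ILMN_2418389 of *Nrxn2* being the second). All probes numbered 784 with median scaling (147 higher and 637 lower, against 648 and 594), 2477 with no filter on dim probes, and 1056 to 1637 without single mice. Partner genes numbered 1 with median scaling, 1 with probes detected on all 12 arrays, 6 on chip 1 alone, 4 with the replicate block and 2 to 4 without single mice (4 without replicate 5 of either group). The cause was not tested. Whether replicate numbers pair the mice was not settled. Deviations of same-numbered mice from their group mean correlated at −0.02 to 0.21, and with chip means also removed at −0.02 to 0.18. With the replicate block *Lrrtm1* had an unadjusted p of 0.0408, 0 probes passed an adjusted p, and 1387 of all probes passed an unadjusted p under 0.05. Signals of *Nlgn1*, *Lrrtm3* and the dim *Nrxn2* and *Nrxn3* probes lay near background, which limits their precision.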
